A study of Mus musculus with 24 samples.

Results

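The heat-shock chaperones described here are 10 mouse genes: Hsf1, Hspa1a, Hspa1b, Hspa8, Dnajb1, Hsph1, Hsp90aa1, Hspb1, Hspd1 and Hspe1. They were chosen by symbol through the Ensembl identifier of each row, 10 of the 36109 genes listed for the lung and 10 of the 36595 listed for the retina. All 10 passed the filter on low counts in both tissues, where 16819 lung genes and 19173 retina genes were tested. RNA sequencing was done on whole lung and on whole retina, with 12 samples per tissue in 4 groups of 3 mice. Wild type (WT) littermates on a C57/B6 background were compared with GSDMD-KO mice (KO), in which CRISPR editing removed 38 base pairs of exon 5 of Gsdmd, the gene of the pore-forming protein gasdermin D. Lungs were taken on postnatal day 15 from pups kept from day 1 to day 14 in 85% oxygen (WT-O2, KO-O2) or in room air at 21% oxygen (WT-RA, KO-RA). Retinas were taken on postnatal day 18 from pups kept in 75% oxygen from day 7 to day 12 and then returned to room air, or kept in room air throughout, and carry the same 4 group names. The lungs were therefore sampled 1 day after oxygen and the retinas 6 days after it, so the tissues are given side by side and were not tested against each other.

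Heat-shock proteins bind unfolded or newly made proteins and keep them from aggregating while they fold. Cytosolic HSP70s do this in cycles of ATP use that J-domain proteins start and that HSP110s and other exchange factors reset, and HSP90 receives some of their clients. When unfolded protein builds up, the transcription factor HSF1 is released from chaperones, forms a trimer and binds heat-shock elements, which are inverted repeats of the unit GAA, in front of the inducible members. Its own mRNA is not the usual point of control.

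The windows around the start sites of the genes carried those repeats more often than most windows do. RefSeq promoter windows of 300 bases on GRCm38.p6, with 250 bases before a start site and 50 after it, were found for 7 members in 10 windows. Hsp90aa1, Hspa8 and Hsf1 were not matched. The letters searched were GAANNTTC or TTCNNGAA for a pair of units, and GAANNTTCNNGAA or TTCNNGAANNTTC for a run of 3 units, which contains pairs. Each pair reads the same on both strands, so both strands were covered. A pair was present in 7 of the 10 windows, from 6 members, and in 15.1% of all 32851 windows of that length. A run of 3 units was present in 4 windows, from Hsph1, Hspd1 and Hspe1, and in 0.603% of all windows. These windows are not independent: those of Hsph1 overlap and hold the same run, and those of Hspd1 and Hspe1 share theirs. The run of Hsph1 starts 36 bases after the start site of its first window. These members are well-known targets of HSF1, so the matches describe the list and are not a result of these samples.

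The stretches below belong to members that the results turn on, in lower case with the matched letters in capitals. For Hspa1a, Hspa1b and Hspb1 they are the 150 bases before the start site, outside any annotated exon, at chr17:34972157-34972306 on the minus strand, chr17:34959239-34959388 on the minus strand and chr5:135887769-135887918 on the plus strand. For Hspe1 and Hsph1 only the runs of 3 units, a pair of overlapping ones in Hspe1, and their flanks are shown, at chr1:55088053-55088082 on the plus strand and chr5:149636287-149636306 on the minus strand.
Hspa1a: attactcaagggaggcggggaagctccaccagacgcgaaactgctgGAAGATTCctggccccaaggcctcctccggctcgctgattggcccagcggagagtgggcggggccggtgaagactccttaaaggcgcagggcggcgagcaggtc
Hspa1b: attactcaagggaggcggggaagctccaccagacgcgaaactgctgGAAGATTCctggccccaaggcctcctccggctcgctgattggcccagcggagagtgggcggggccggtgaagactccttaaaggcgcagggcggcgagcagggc
Hspb1: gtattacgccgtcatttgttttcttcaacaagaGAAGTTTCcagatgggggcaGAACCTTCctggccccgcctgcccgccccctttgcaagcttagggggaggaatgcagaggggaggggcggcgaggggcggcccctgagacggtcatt
Hspe1: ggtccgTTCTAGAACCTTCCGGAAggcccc
Hsph1: tgcagaTTCTGGAAAGTTCt
The windows of Hspa1a and Hspa1b were identical at 296 of 300 positions, and both held 1 pair, at the same distance before the start site. Hspd1 and Hspe1 lie next to each other on chromosome 1 on opposite strands, and the run shown for Hspe1 is also the one in 1 of the Hspd1 windows. The other Hspd1 window held none.

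Hspa1a (chr17:34969190-34972156, GRCm38, minus strand) and Hspa1b (chr17:34956436-34959238, minus strand) also share most of their transcript. Of the 31-base words of the Hspa1a transcripts 63.8% occur in Hspa1b, and of those of Hspa1b 67.6% occur in Hspa1a. The counts are estimates that divide such reads between copies, so the level of either copy is uncertain and their sum is given beside them. Between 24.8% and 52.3% of the words of Hsp90aa1, Hspa8, Hspb1, Hspd1 and Hspe1 also occur in other genes, mostly processed copies. The copy sharing the most words with each of these 5 was listed at no more than 1.44 CPM (counts per 1000000 counts of the library, scaled by edgeR's TMM factors) in any lung and 1.46 CPM in any retina.

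Some features of the samples touch the results. Gsdmd stood at 40.6 to 42.3 CPM in room-air WT lungs and 22.6 to 24.8 in room-air KO lungs, at 32.2 to 36.4 against 11.7 to 16.3 CPM after hyperoxia, and between 0.419 and 5.70 CPM in the retinas. Counts over the whole gene do not check a deletion of 38 base pairs. Summed lung epithelium markers were at 20677 to 26746 CPM in the hyperoxia-exposed lungs and at 30522 to 35797 CPM in the room-air lungs. By the test used below 5 of 8 markers were lower in WT and 4 of 8 in KO, 1 was higher in WT and none higher in KO. Of all 16819 lung genes 4154 passed lower in WT and 3935 in KO. Summed photoreceptor markers reached at least 51985 CPM in every retina. The part of the epithelial markers in the lung values was not tested. Y-linked genes were present in 0 of 3 room-air and 1 of 3 hyperoxia-exposed WT lungs, in 2 and 3 of 3 KO lungs, and in 3 of 3 room-air and 1 of 3 hyperoxia-exposed retinas of each genotype. Summed erythroid markers ran from 2993 to 4221 CPM in WT-O2 lungs and from 6049 to 30068 CPM in the other 9. Summed liver markers were at 413 CPM in KO-O2 lung mouse 1 and at most 316 CPM in the other 11 lungs. Summed lens markers passed 1000 CPM in 3 room-air retinas, WT-RA mice 2 and 3 and KO-RA mouse 3, and reached at most 348 CPM in the other 9. Summed pigment epithelium markers were at 727 to 2567 CPM in the room-air retinas and at 339 to 568 CPM in the hyperoxia-exposed retinas. The part of the pigment epithelium markers in the retina values was not tested. In whole tissue, fewer cells of a type and less RNA per cell cannot be told apart.

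In WT lungs, 4 of the 10 chaperones passed edgeR's quasi-likelihood test at a Benjamini-Hochberg adjusted p under 0.1 after hyperoxia. Hspa1b, Hspb1 and Hsp90aa1 were higher and Dnajb1 was lower. Of all lung genes 49.2% passed in the same comparison, 24.5% higher and 24.7% lower. The members passed about as often as any gene. The median log2 fold change of the 10 was 0.22, against -0.01 over all genes tested. Hspa1b alone also reached a fold change of 2, a size that 11.6% of genes reached with a passing test.

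In KO lungs 4 of the 10 passed as well, Hspa1b, Hspe1, Hspd1 and Hspb1, and all 4 were higher. Of all lung genes 46.7% passed in KO, 23.3% higher. The median over the 10 was 0.18, against -0.01 over all genes tested. No member reached a fold change of 2 in KO, where 10.6% of genes did so with a passing test.

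**Figure D1:**
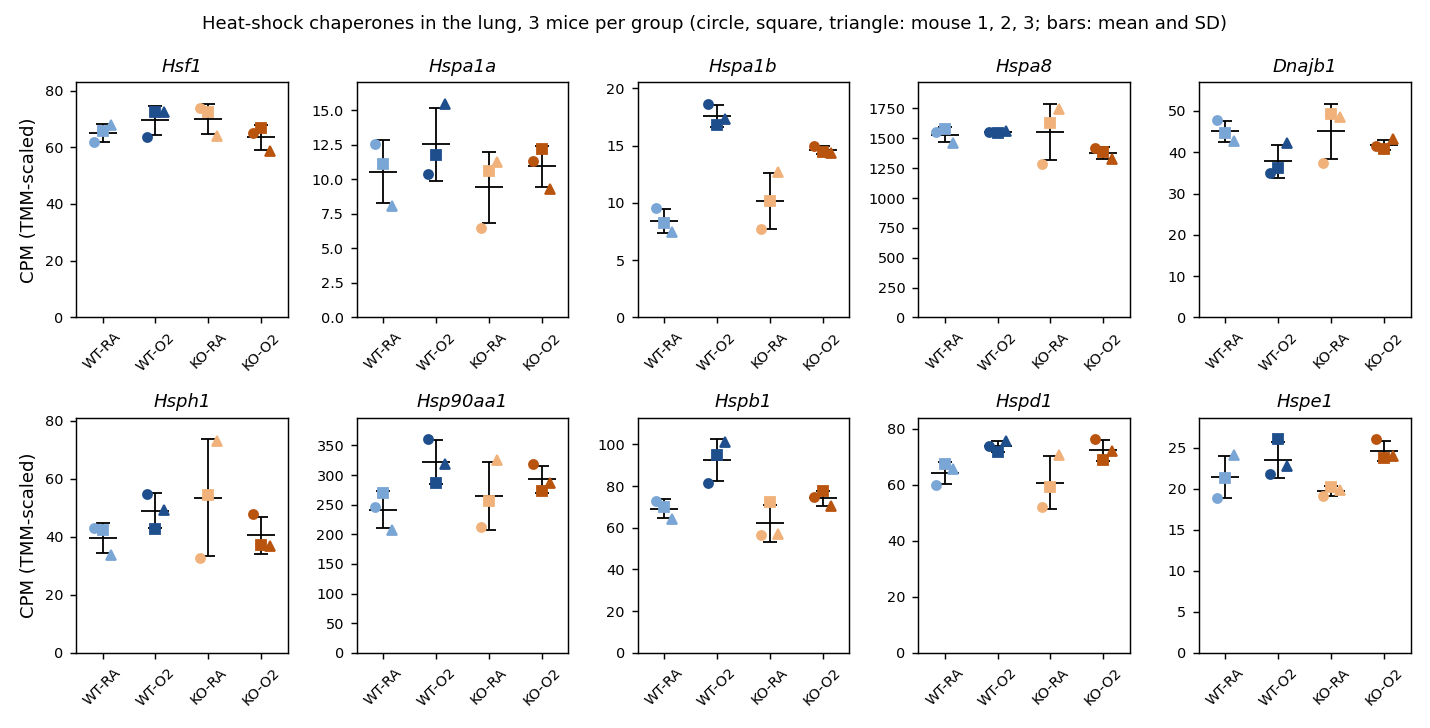
CPM of each chaperone in the 12 lungs, by group on the x axis, with 1 symbol per mouse and bars for the mean and SD of 3 mice. Hspa1b lies between 7.46 and 12.7 CPM in the 6 room-air lungs and between 14.4 and 18.7 in the 6 hyperoxia-exposed lungs.

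Hsf1, the transcription factor of the heat-shock response, did not pass in any lung comparison. It was measured at 61.8, 65.6 and 67.8 CPM in the WT-RA lungs, 63.7, 72.6 and 72.4 in WT-O2, 73.7, 72.6 and 64.1 in KO-RA and 64.9, 67.0 and 58.5 in KO-O2. The groups overlapped, with log2 fold changes of 0.10 (SE 0.09, adjusted p = 0.39) in WT and -0.14 (SE 0.09, adjusted p = 0.2) in KO.

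Hspa1b, an HSP70 that cells make in quantity on heat shock, had the largest change of the 10 in the WT lung. Its levels were 9.56, 8.24 and 7.46 CPM in WT-RA, 18.7, 16.8 and 17.3 in WT-O2, 7.76, 10.2 and 12.7 in KO-RA and 14.98, 14.4 and 14.4 in KO-O2. Every hyperoxia-exposed lung lay above every room-air lung, in both genotypes. The change was 1.06 on the log2 scale (SE 0.15, adjusted p = 6.5e-05), a fold change of 2.09, in WT and 0.52 (SE 0.15, adjusted p = 0.013) in KO. It passed in both genotypes without any 1 of the 12 lungs, with a log2 fold change of 0.99 to 1.16 in WT and 0.36 to 0.70 in KO. With a term for Y-linked expression it was 0.98 (adjusted p = 0.00023) and 0.45 (adjusted p = 0.032), and with a term for erythroid markers 0.90 (adjusted p = 0.051) and 0.49 (adjusted p = 0.023).

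Hspa1a, which encodes nearly the same protein, was at 12.5, 11.1 and 8.05 CPM in WT-RA, 10.4, 11.7 and 15.5 in WT-O2, 6.46, 10.6 and 11.2 in KO-RA and 11.3, 12.2 and 9.27 in KO-O2. These groups overlapped, and the log2 fold changes were 0.25 (SE 0.22, adjusted p = 0.39) in WT and 0.21 (SE 0.22, adjusted p = 0.48) in KO. The sum of both copies went from 19.0 ± 3.30 CPM in room air to 30.1 ± 2.32 after hyperoxia in WT, and from 19.6 ± 4.93 to 25.5 ± 1.64 in KO (mean ± SD, n = 3). Fitted as a single feature, that sum was higher after hyperoxia in WT, by 0.67 (SE 0.16, adjusted p = 0.0051), and in KO, by 0.38 (SE 0.16, adjusted p = 0.082). Whether the copies changed differently was not tested, since their reads overlap.

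Hspa8, the HSP70 that cells make at all times, was at 1551, 1582 and 1459 CPM in WT-RA, 1552, 1546 and 1565 in WT-O2, 1289, 1625 and 1747 in KO-RA and 1423, 1386 and 1324 in KO-O2. The WT groups were nearly level, with a log2 difference of 0.02 (SE 0.10, adjusted p = 0.88), and the KO-RA lungs were far more spread than any other group. In KO the value was -0.17 (SE 0.10, adjusted p = 0.2).

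Dnajb1, the J-domain protein that starts the HSP70 cycle of the stress-induced copies, was the 1 member that fell in WT. It was at 47.9, 44.6 and 42.8 CPM in WT-RA and at 34.9, 36.2 and 42.2 in WT-O2. The WT groups did not overlap, and the log2 fold change was -0.26 (SE 0.11, adjusted p = 0.068). Without WT-RA mouse 1, WT-RA mouse 2, WT-O2 mouse 1 or WT-O2 mouse 2 it did not pass, with adjusted p of 0.19, 0.12, 0.21 and 0.17. KO lungs overlapped, at 37.3, 49.3 and 48.6 CPM in KO-RA and 41.4, 40.9 and 43.2 in KO-O2, with a log2 fold change of -0.11 (SE 0.11, adjusted p = 0.46).

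Hsph1, an HSP110 that resets HSP70 and holds unfolded protein, varied more between mice than between groups. It was at 43.0, 42.3 and 33.6 CPM in WT-RA, 54.8, 42.8 and 49.4 in WT-O2, 32.7, 54.5 and 73.2 in KO-RA and 47.7, 37.1 and 36.7 in KO-O2. The KO-RA lungs alone span the lowest and the highest of the 12 values. The log2 fold changes were 0.31 (SE 0.24, adjusted p = 0.34) in WT and -0.40 (SE 0.24, adjusted p = 0.22) in KO. Without KO-RA mouse 1, the lowest lung, the KO value was -0.66 (adjusted p = 0.0073), without KO-RA mouse 3, the highest, it was -0.11 (adjusted p = 0.72), and with a term for Y-linked expression it was -0.52 (adjusted p = 0.081).

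Hsp90aa1, the inducible cytosolic HSP90, was at 246, 270 and 208 CPM in WT-RA, 361, 286 and 319 in WT-O2, 212, 256 and 325 in KO-RA and 318, 273 and 287 in KO-O2. All WT-O2 lungs lay above all WT-RA lungs, and the log2 fold change was 0.41 (SE 0.14, adjusted p = 0.032). It was 0.32 without WT-RA mouse 3 and 0.33 without WT-O2 mouse 1 (adjusted p = 0.12), and passed in neither. In KO the groups overlapped, with a value of 0.15 (SE 0.14, adjusted p = 0.45). With a term for erythroid markers the WT calls of Hsp90aa1 (0.23, adjusted p = 0.63) and of Dnajb1 (-0.45, adjusted p = 0.15) were lost.

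Hspb1, the small heat-shock protein HSP25 of the mouse, which holds unfolded protein without using ATP, was at 73.0, 70.1 and 64.1 CPM in WT-RA and at 81.2, 95.1 and 101 in WT-O2. It was at 56.6, 72.5 and 57.0 CPM in KO-RA and 74.9, 77.4 and 70.2 in KO-O2. All WT-O2 lungs were above all WT-RA lungs, whereas in KO the highest room-air lung overlapped with the lowest hyperoxia-exposed lung. The log2 fold changes were 0.42 (SE 0.11, adjusted p = 0.0054) in WT and 0.26 (SE 0.11, adjusted p = 0.067) in KO. The WT change passed without any 1 of the 12 lungs, and the KO change did not pass without KO-O2 mouse 1, KO-O2 mouse 2, KO-RA mouse 1 or KO-RA mouse 3, with adjusted p of 0.14 to 0.22. With a term for Y-linked expression the KO value was 0.20 (adjusted p = 0.17). With a term for erythroid markers the WT value was 0.51 (adjusted p = 0.11).

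Hspd1 and Hspe1 encode HSP60 and HSP10, which together form the folding chamber of mitochondria. Hspd1 was at 59.9, 67.4 and 65.5 CPM in WT-RA, 73.9, 71.7 and 75.6 in WT-O2, 52.2, 59.3 and 70.7 in KO-RA and 76.2, 68.6 and 71.8 in KO-O2. The WT groups did not overlap and the KO groups did, but the test passed in KO, with a log2 fold change of 0.25 (SE 0.10, adjusted p = 0.054), and not in WT, with 0.20 (SE 0.10, adjusted p = 0.12). The KO call was lost without KO-O2 mouse 1, KO-O2 mouse 3, KO-RA mouse 1 or KO-RA mouse 2, over which the value was 0.15 to 0.25, and with a term for Y-linked expression (0.19, adjusted p = 0.13).

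Hspe1 was at 18.9, 21.3 and 24.1 CPM in WT-RA, 21.8, 26.1 and 22.7 in WT-O2, 19.1, 20.2 and 19.9 in KO-RA and 26.0, 23.8 and 24.1 in KO-O2. The KO groups were separate, with all room-air lungs under all hyperoxia-exposed lungs. The log2 fold change was 0.32 (SE 0.10, adjusted p = 0.022) in KO, which passed without any 1 of the 12 lungs, and 0.13 (SE 0.10, adjusted p = 0.31) in WT. Over the 10 members, 5 had WT groups that did not overlap and 2 had KO groups that did not, against 49.8% and 52.4% of all lung genes.

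**Figure D2:**
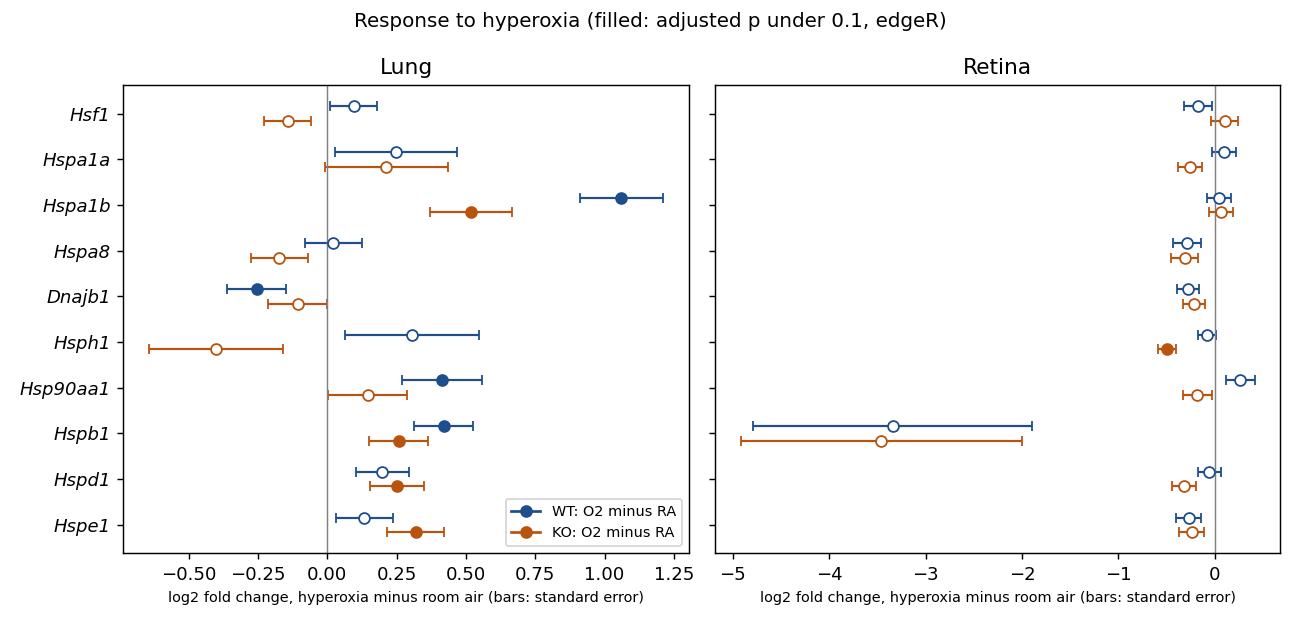
log2 fold change of each chaperone after hyperoxia, WT in blue and KO in orange, with the standard error as a bar and filled points for an adjusted p under 0.1. In the lung 4 members are filled in each genotype, and in the retina 1, Hsph1 in KO, while Hspb1 in the retina lies below -3 with wide errors.

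No chaperone passed a comparison of the genotypes in the lung. In hyperoxia, KO-O2 minus WT-O2 was passed by 0 of 10 members with edgeR and 0 with DESeq2. In edgeR 1 member, Hspb1, had an unadjusted p under 0.05, as did 1045 of all 16819 lung genes. The log2 difference of Hspb1 was -0.32 (SE 0.11, adjusted p = 0.61). All KO-O2 lungs were under all WT-O2 lungs for 3 members, Hspa1b, Hspa8 and Hspb1, and 12.2% of all genes had groups that did not overlap. The difference for Hspa1b was -0.27 (SE 0.15, adjusted p = 0.84) and for Hspa8 -0.17 (SE 0.10, adjusted p = 0.86). Of all lung genes 0.0416% passed this comparison.

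In room air, KO-RA minus WT-RA was passed by 0 of 10 members with either tool, 0 had an unadjusted p under 0.05 in edgeR, and 0.488% of all genes passed. The interaction, which sets the response of KO against that of WT, was passed by 0 of 10 members with either tool and by 0.00595% of all genes. In edgeR 1 member had an unadjusted p under 0.05, as did 1130 of all 16819 lung genes. The member was Hspa1b, whose response was lower in KO by 0.54 on the log2 scale (SE 0.21, adjusted p = 0.67). For Hsph1, which had opposite signs in the genotypes, the interaction was -0.71 (SE 0.34, adjusted p = 0.77), and -0.42 (adjusted p = 0.82) without KO-RA mouse 3. Without that mouse the value of Hspa1b was -0.36 (adjusted p = 0.77). Within 2 standard errors the interaction of Hspa1b spans -0.97 to -0.12 and that of Hsph1 -1.39 to -0.02, so neither value is tightly bounded.

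Within a group, Hspa8, Hsph1, Dnajb1 and Hsp90aa1 varied from lung to lung with the Hspa1a and Hspa1b sum. After the mean of each group was subtracted from log2(CPM + 1), the correlation with the sum of Hspa1a and Hspa1b over the 12 lungs was r = 0.90 for Hspa8, 0.87 for Hsph1, 0.83 for Dnajb1 and 0.75 for Hsp90aa1 (Spearman's rho of 0.84, 0.74, 0.79 and 0.59). Hspb1 and Hspd1 had r of 0.46 and 0.56, and Hspe1 and Hsf1 had -0.30 and -0.37. Without the 2 lungs farthest from the median, KO-RA mouse 1 and WT-RA mouse 3, the first 4 values were 0.78, 0.70, 0.66 and 0.47. The group means subtracted were still those of all 12 lungs, so these values are not free of the 2 lungs left out. Points of 1 mouse share a library, so these are descriptions of 12 libraries and no p is given. Among 14677 lung genes of at least 1 CPM, Hspa8 ranked 25, Hsph1 64, Dnajb1 125 and Hsp90aa1 386 by this likeness. The 3 most alike were Ercc5 (r = 0.969), Tex2 (0.952) and Fam78b (0.948).

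The spread was widest in KO-RA for the sum, Hsph1, Hspa8, Dnajb1 and Hsp90aa1. KO-RA mouse 1 was below its group by 0.41 log2 units in the sum of Hspa1a and Hspa1b, by 0.62 in Hsph1, by 0.26 in Hspa8, by 0.26 in Dnajb1 and by 0.29 in Hsp90aa1. KO-RA mouse 3 was above it by 0.30, 0.52, 0.18, 0.12 and 0.32 in the same genes. Its erythroid markers were the lowest of the KO-RA lungs, at 12776 CPM, and those of mouse 1 the highest, at 26981 CPM. Mouse 1 was also the 1 KO-RA lung without Y-linked expression, at 3.28 CPM against 108 and 154 CPM. The part of blood and of sex in this spread was not tested.

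**Figure D3:**
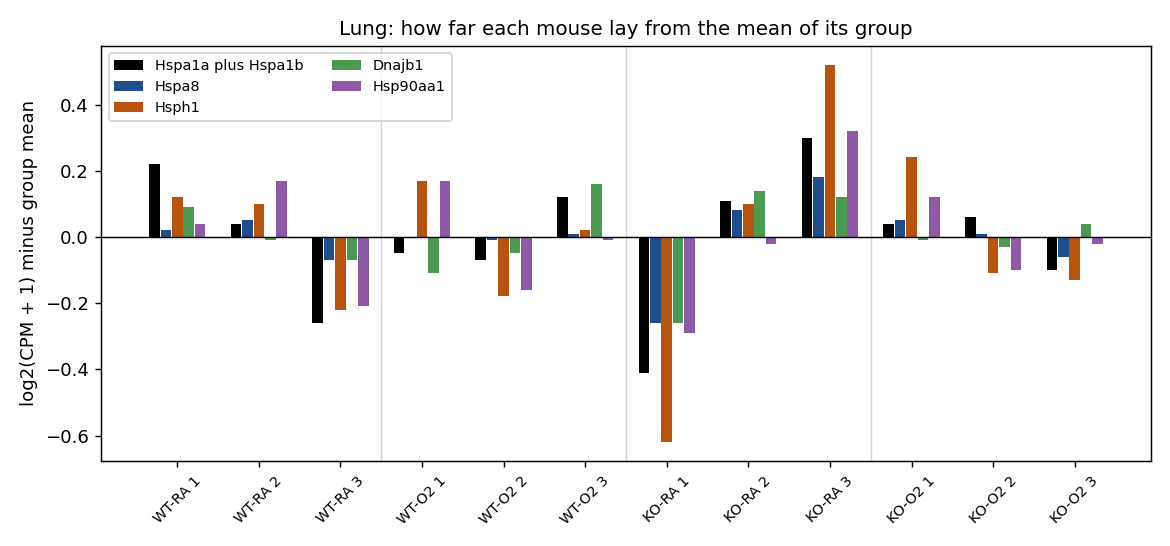
Distance of each of the 12 lungs from the mean of its group in log2(CPM + 1), with 1 bar per gene and mouse. In KO-RA mouse 1 all 5 bars are below 0, from -0.62 to -0.26, and in KO-RA mouse 3 all 5 are above it, from 0.12 to 0.52.

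Other chaperone families were counted on lists written from general knowledge. The TRiC/CCT chaperonin, the cytosolic chamber that folds actin and tubulin, was higher after hyperoxia in 8 of 8 subunits in WT lungs and in 7 of 8 in KO, with median log2 fold changes of 0.33 and 0.37. Cct7 rose by 0.49 (SE 0.08, adjusted p = 0.00019) in WT and 0.41 (SE 0.08, adjusted p = 0.00091) in KO. Mitochondrial chaperones and proteases were higher in 6 of 8 in both genotypes, none lower, with medians of 0.25 and 0.23. Hspa9, the HSP70 of mitochondria, rose by 0.99 (SE 0.10, adjusted p = 1.6e-06) and 1.03 (SE 0.10, adjusted p = 1.3e-06), with mean levels of 95.6 and 190 CPM in WT and of 95.5 and 196 in KO. Clpb, a mitochondrial disaggregase, rose by 0.52 (adjusted p = 5.7e-05) and 0.34 (adjusted p = 0.002).

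Small heat-shock proteins other than Hspb1 were split, with 3 higher and 1 lower of the 5 tested in each genotype and medians of 0.40. Hspb8, a partner of Bag3 in autophagy of misfolded protein, rose by 0.96 (SE 0.10, adjusted p = 5.1e-06) in WT and 0.71 (SE 0.10, adjusted p = 8.2e-05) in KO, and Hspb6 by 0.66 and 0.69. Hspb2, which is found mainly in muscle, fell by 0.47 and 0.61 on the log2 scale (adjusted p = 0.044 and 0.015). Exchange factors and regulators of HSP70 had 4 higher and 1 lower of 8 in WT and 2 higher in KO, with medians of 0.19 and 0.13. Bag2, an inhibitor of the ubiquitin ligase CHIP, rose by 0.81 (adjusted p = 0.00086) and 0.51 (adjusted p = 0.018).

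The remaining lists had no common direction in the lung. Other HSP70 and HSP110 genes had 2 higher and 3 lower of 8 in WT and 2 and 2 in KO, with log2 fold changes of -0.51 and -0.84 (adjusted p = 0.0002 and 2.5e-06) for Hspa12b, an atypical HSP70 of endothelium. Other J-domain proteins had 2 higher and 4 lower of 9 in WT and 2 and 3 in KO. HSP90 and its cochaperones had 1 higher of 10 in WT, and 1 higher and 3 lower in KO. Stip1, which links HSP70 to HSP90, rose by 0.41 (adjusted p = 0.0056) in WT and 0.27 (adjusted p = 0.056) in KO. Of the chaperones of the endoplasmic reticulum 4 were higher and 1 lower of 12 in WT, and 2 higher and 1 lower in KO. Heat-shock factors other than Hsf1 and their binding proteins had 1 lower of 4 tested in each genotype, Hsf4, with log2 fold changes of -0.63 and -0.68 (adjusted p = 0.0019 and 0.0013). Of all lung genes 49.2% and 46.7% passed, and no list was tested as a set. The TRiC/CCT and mitochondrial lists were those with several genes higher and none lower in both genotypes.

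Markers of stress from handling were counted as well. Immediate early genes, which respond within minutes to many stimuli, were higher in 3 and lower in 1 of 12 in WT lungs and higher in 7 and lower in 1 in KO, against 24.5% and 23.3% of all lung genes passing higher. In KO-RA minus WT-RA their median was -0.70, with 0 of 12 above 0. Of the 12, 5 had an unadjusted p under 0.05, as did 1762 of all 16819 lung genes. In KO-O2 minus WT-O2 the median of the 12 was 0.08. None passed either comparison or the interaction. After hyperoxia Junb rose by 1.37 (SE 0.22, adjusted p = 0.00051) in WT and 1.57 (SE 0.22, adjusted p = 0.00023) in KO, and Atf3 by 1.46 (adjusted p = 0.015) and 2.63 (adjusted p = 0.00083). Of the cold-inducible RNA-binding proteins, Rbm3 rose by 0.43 (adjusted p = 0.0022) and 0.58 (adjusted p = 0.00021), and Cirbp had values of -0.39 and -0.34 (adjusted p = 0.13 and 0.19). Their part in the chaperone values was not tested.

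In the retina, after 6 days back in room air, 1 chaperone passed in 1 genotype. In WT 2 of the 10 members had an unadjusted p under 0.05 in edgeR, as did 3332 of all 19173 retina genes. With edgeR 0 of the 10 passed, against 5.16% of all retina genes. With DESeq2 1 passed, Hspb1. In KO 1 of the 10 passed, Hsph1, which was lower, against 7.82% of all genes passing and 3.44% passing lower. With DESeq2 3 passed, Hsph1, Hspb1 and Hspd1. The shares of all genes are those of edgeR, and none is given for DESeq2, so its counts cannot be set against all genes. Median log2 fold changes over the 10 were -0.13 in WT and -0.25 in KO, against 0.00 over all genes in each.

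**Figure D4:**
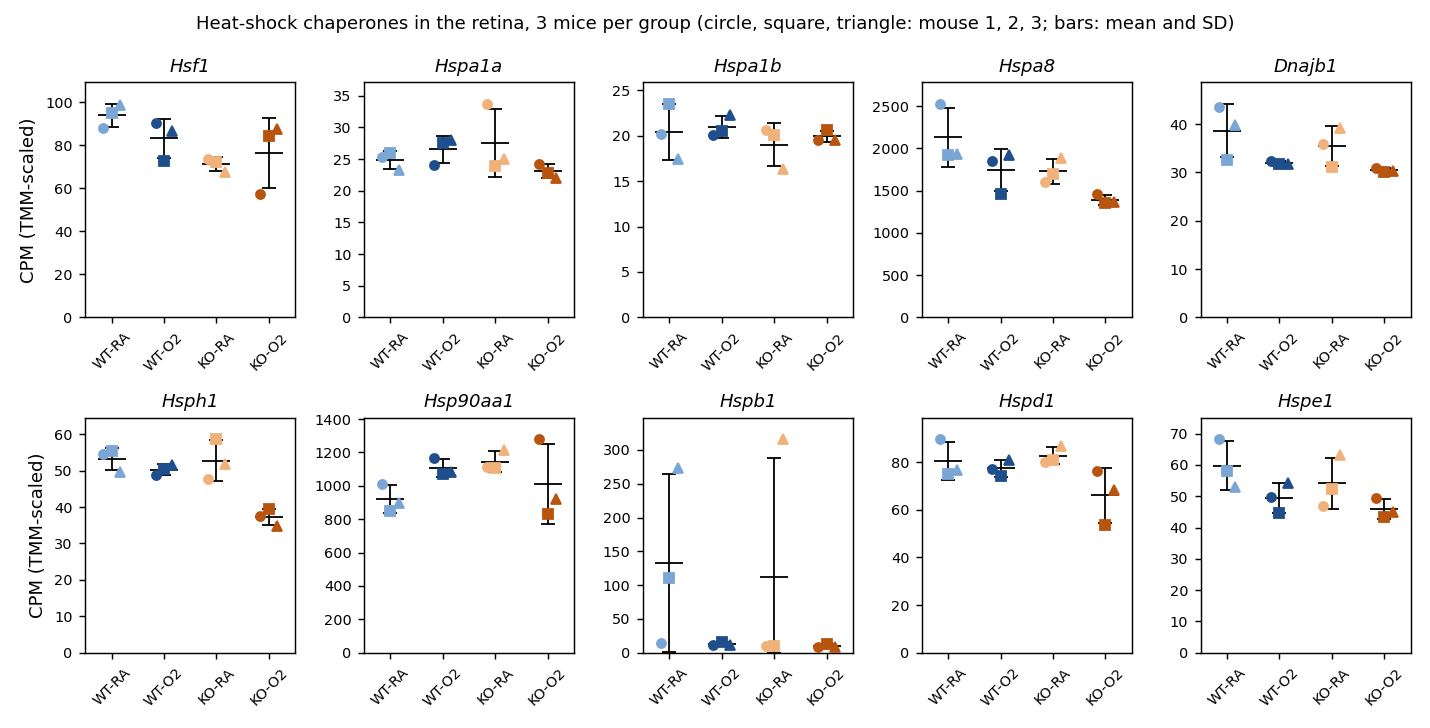
CPM of each chaperone in the 12 retinas, by group on the x axis, with 1 symbol per mouse and bars for the mean and SD of 3 mice, cut at 0 for Hspb1. Hsph1 lies between 34.9 and 39.4 CPM in KO-O2 and between 47.6 and 58.7 in the other 9 retinas, and Hspb1 is above 100 CPM in 3 room-air retinas only.

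Hsph1 was the 1 member that passed in the retina. It was at 54.6, 55.4 and 49.7 CPM in WT-RA, 48.7, 50.3 and 51.6 in WT-O2, 47.6, 58.7 and 51.9 in KO-RA and 37.5, 39.4 and 34.9 in KO-O2. Every KO-O2 retina was below each of the other 9. Dnajb1 and Hspa8 had this order too, but barely, with nearest retinas at 30.95 against 31.08 CPM and at 1458 against 1459 CPM. The share of all genes with this order was not counted, so the order is not read as a result about the chaperones. The KO-O2 retinas stood apart in cell type markers too, with 51985 to 58590 CPM of summed photoreceptor markers against at least 59991 in the other 9 and 429 to 490 CPM of erythroid markers against at least 585, and the part of these in the chaperone values was not tested. In KO Hsph1 fell by 0.50 on the log2 scale after hyperoxia (SE 0.09, adjusted p = 0.017), and in WT the value was -0.08 (SE 0.09, adjusted p = 0.71). The KO change passed without any 1 of the 12 retinas (adjusted p of 0.02 to 0.061), with a term for lens markers (-0.53, adjusted p = 0.026), with a term for Y-linked expression (-0.48, adjusted p = 0.079) and without the 3 retinas high in lens markers (-0.51, adjusted p = 0.078).

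The genotypes differed in Hsph1 after hyperoxia by less certain margins. KO-O2 minus WT-O2 was -0.43 (SE 0.09, adjusted p = 0.086), the 1 of 10 members to pass, and it was lower. Of all genes 1.27% passed, 0.704% lower. The call did not hold without any 1 of the 3 KO-O2 retinas (adjusted p of 0.11, 0.17 and 0.27 for mice 1, 2 and 3), any 1 of the 3 WT-O2 retinas (0.22, 0.2 and 0.23), WT-RA mouse 2 (0.12), KO-RA mouse 3 (0.12) or the 3 retinas high in lens markers (0.17), while the log2 value stayed between -0.47 and -0.39. The interaction for Hsph1 was -0.42 (SE 0.13, adjusted p = 0.29). In KO-O2 minus WT-O2 all 10 members had a negative value, with a median of -0.17 against 0.01 over all genes, and 3 had groups that did not overlap, against 19.9% of all genes.

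The stress-induced HSP70 copies had groups that overlapped in the retina. Hspa1a was at 25.4, 26.0 and 23.3 CPM in WT-RA, 24.1, 27.5 and 28.1 in WT-O2, 33.7, 23.9 and 25.1 in KO-RA and 24.3, 22.8 and 22.1 in KO-O2. Hspa1b was at 20.2, 23.5 and 17.4 CPM in WT-RA, 20.1, 20.6 and 22.3 in WT-O2, 20.7, 20.1 and 16.3 in KO-RA and 19.5, 20.7 and 19.6 in KO-O2. Their sum averaged 45.2 ± 4.44 and 47.5 ± 3.15 CPM in room-air and hyperoxia-exposed WT retinas, and 46.6 ± 6.89 and 42.95 ± 1.16 CPM in those of KO (SD, n = 3). Groups overlapped for both copies, and the log2 fold changes of Hspa1b were 0.04 (SE 0.13, adjusted p = 0.91) in WT and 0.07 (SE 0.13, adjusted p = 0.82) in KO. Within 2 standard errors these values span -0.21 to 0.29 in WT and -0.18 to 0.32 in KO.

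Hspa8 was at 2530, 1923 and 1940 CPM in WT-RA, 1848, 1459 and 1923 in WT-O2, 1601, 1695 and 1888 in KO-RA and 1458, 1349 and 1367 in KO-O2. Each hyperoxia-exposed group lay under the room-air group of its genotype, barely so in WT, where the nearest retinas both round to 1923 CPM, with log2 differences of -0.29 (SE 0.14, adjusted p = 0.32) in WT and -0.31 (SE 0.14, adjusted p = 0.24) in KO. Dnajb1 had the same order, at 43.5, 32.6 and 39.9 CPM in WT-RA, 32.4, 31.7 and 31.8 in WT-O2, 36.0, 31.1 and 39.3 in KO-RA and 30.95, 30.2 and 30.3 in KO-O2. Its log2 differences were -0.28 (SE 0.11, adjusted p = 0.24) and -0.22 (SE 0.11, adjusted p = 0.32).

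Hsp90aa1 was at 1011, 851 and 896 CPM in WT-RA, 1167, 1068 and 1080 in WT-O2, 1110, 1109 and 1216 in KO-RA and 1280, 831 and 919 in KO-O2. WT-O2 retinas were all above WT-RA retinas, with a log2 difference of 0.27 (SE 0.15, adjusted p = 0.39), and the KO groups overlapped, with -0.18 (SE 0.15, adjusted p = 0.55). Groups did not overlap for 3 of the 10 members in WT, Hspa8, Dnajb1 and Hsp90aa1, against 24% of all genes, and for 4 in KO, Hsph1, Hspa8, Dnajb1 and Hspd1, against 26.2%.

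Hspd1 of the mitochondrial pair was at 89.7, 74.98 and 76.5 CPM in WT-RA, 77.2, 74.1 and 80.8 in WT-O2, 80.1, 81.1 and 86.8 in KO-RA and 76.3, 53.6 and 68.5 in KO-O2. The KO groups were separate, with a log2 difference of -0.32 (SE 0.12, adjusted p = 0.17). Hspe1 was at 68.2, 58.1 and 53.1 CPM in WT-RA, 49.8, 44.5 and 54.1 in WT-O2, 47.0, 52.4 and 63.1 in KO-RA and 49.5, 43.4 and 44.9 in KO-O2, with overlap in both genotypes. Hsf1 was at 88.2, 94.8 and 98.8 CPM in WT-RA, 90.1, 72.7 and 86.5 in WT-O2, 73.7, 72.3 and 67.6 in KO-RA and 57.5, 84.0 and 87.5 in KO-O2.

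Hsf1 was the member with the smallest p between the genotypes in room air, where all KO-RA retinas were below all WT-RA retinas. The log2 difference was -0.40 (SE 0.14, adjusted p = 0.31). Groups did not overlap for 3 of the 10 members in this comparison. Besides Hsf1 these were Hspa8, at -0.30 (SE 0.14, adjusted p = 0.4), and Hsp90aa1, at 0.32 (SE 0.15, adjusted p = 0.41). The share of all genes with separate groups was not counted here. It was 24%, 26.2% and 19.9% in the other retina comparisons, so 3 of 10 is not read as a result about the members. KO-RA minus WT-RA was passed by 0 of 10 members with edgeR or DESeq2, with 1 under an unadjusted p of 0.05 in edgeR, and by 0.00522% of all genes. The interaction was passed by 0 members with edgeR, with 1 under an unadjusted p of 0.05, and by 1 with DESeq2, Hsph1 in both cases. In edgeR 2427 of all 19173 genes had an unadjusted p under 0.05 in KO-RA minus WT-RA, and 2035 in the interaction. With edgeR the interaction was passed by 0.00522% of all genes, and no such share is given for DESeq2.

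Hspb1 had the widest range of the 10 in the retina as a ratio of the highest to the lowest value. It was at 14.3, 110 and 274 CPM in WT-RA, 11.2, 16.6 and 11.4 in WT-O2, 10.4, 10.4 and 316 in KO-RA and 9.09, 12.7 and 8.79 in KO-O2. The 3 high values are those of the 3 retinas with lens markers above 1000 CPM, and the other 9 lie between 8.79 and 16.6 CPM. KO-RA mouse 3, the highest of them, also held 2567 CPM of pigment epithelium markers, against at most 888 CPM in any other retina. Its liver markers were at 2157 CPM, against at most 625 CPM elsewhere, and both lists hold Ttr. The part of these markers in Hspb1 was not tested. Hspb1 is also expressed in the lens, whose fibres hold large amounts of the related chaperones, the alpha-crystallins. Summed lens markers were 70.2, 25105 and 81777 CPM in WT-RA, 8.35, 4.99 and 9.05 in WT-O2, 47.5, 7.30 and 38329 in KO-RA and 6.39, 7.42 and 348 in KO-O2, and all 11 markers on the list were present in the table.

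With all 12 retinas, the log2 fold change of Hspb1 was -3.34 (SE 1.45, adjusted p = 0.28) in WT and -3.46 (SE 1.46, adjusted p = 0.23) in KO. Without the 3 retinas it was -0.13 (SE 0.28, adjusted p = 0.84) and -0.02 (SE 0.23, adjusted p = 0.99). With a term for lens markers in the fit of all 12 it was 0.83 (SE 0.61, adjusted p = 0.56) and -0.35 (SE 0.53, adjusted p = 0.78). Cryab, the alpha-crystallin made outside the lens too, was at 119, 3160 and 12182 CPM in WT-RA and 76.1, 89.4 and 3476 in KO-RA, and between 99.98 and 175 CPM in the hyperoxia-exposed retinas. The same 3 retinas were high. Its log2 fold changes of -5.44 (adjusted p = 0.18) in WT and -3.04 (adjusted p = 0.36) in KO became -0.00 (adjusted p = 1) and 0.84 (adjusted p = 0.11) without them. Hsf4, the heat-shock factor of the lens, was at 12.6, 34.4 and 16.6 CPM in those 3 and at 3.71 to 5.56 CPM in the other 9.

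**Figure D5:**
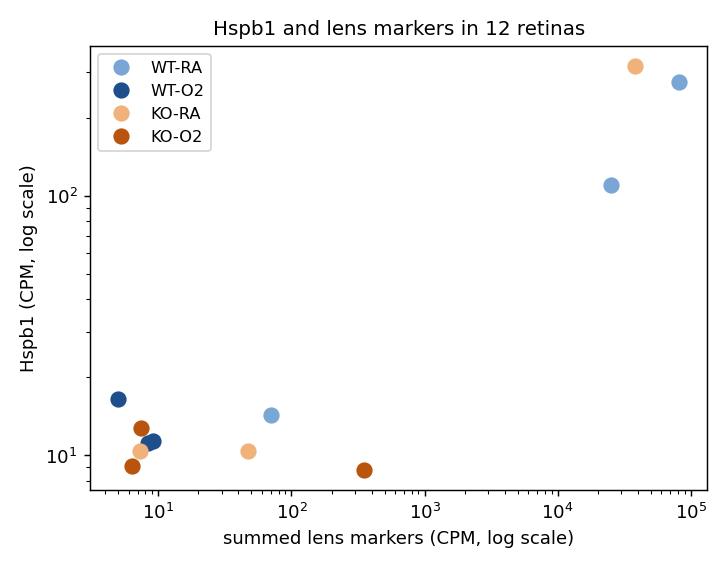
Hspb1 against summed lens markers in the 12 retinas, both in CPM on log axes, coloured by group. The 3 retinas with more than 1000 CPM of lens markers have 110, 274 and 316 CPM of Hspb1, and the other 9 have 16.6 CPM or less.

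Few genes of the other chaperone lists passed in the retina. In WT 0 genes of the TRiC/CCT, mitochondrial, HSP70, J-domain, exchange factor, HSP90, small heat-shock and heat-shock factor lists passed with edgeR, and 0, 0, 2, 0, 3, 1, 1 and 1 of them had an unadjusted p under 0.05. Of all 19173 genes 3332 had such a p in WT. In KO 1 HSP70 gene, Hspa4, and 1 exchange factor, St13, were lower, with log2 fold changes of -0.28 and -0.54 (adjusted p = 0.079 and 0.047). Lonp1 and Unc45a were higher in KO, by 0.33 (adjusted p = 0.094) and 0.39 (adjusted p = 0.067). In KO, in the same order of lists, 0, 3, 3, 0, 2, 6, 0 and 0 genes had an unadjusted p under 0.05, as did 3890 of all 19173 genes, and the median over the HSP90 list was -0.29. Without the 3 retinas high in lens markers Unc45a alone of these 4 passed (0.47, adjusted p = 0.089), with adjusted p of 0.13 for Hspa4, 0.16 for St13 and 0.27 for Lonp1. Cct6a was not analysed here for the retina, so that list had 7 subunits, with medians of -0.04 and -0.11.

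Chaperones of the endoplasmic reticulum were lower in KO retinas after hyperoxia in 4 of 12 genes, against 3.44% of all genes passing lower. Their median was -0.34 against 0.00 over all genes. Canx had a log2 difference of -0.47 (SE 0.09, adjusted p = 0.018), Hspa5 (BiP, the HSP70 of that compartment) one of -0.45 (SE 0.12, adjusted p = 0.067) and Hsp90b1 one of -0.37 (SE 0.10, adjusted p = 0.07). In WT 0 of the 12 passed, 0 had an unadjusted p under 0.05, and the median was 0.00. In KO-O2 minus WT-O2 0 of the 12 passed, with 10 at an unadjusted p under 0.05, as were 2412 of all 19173 genes. In the interaction 0 of the 12 passed, with 4 under that p, as were 2035 of all genes. Without the 3 retinas high in lens markers 1 of the 12 passed in KO, Canx (-0.48, adjusted p = 0.077), while Hspa5 was at -0.42 (adjusted p = 0.15) and Hsp90b1 at -0.38 (adjusted p = 0.19).

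Immediate early genes were higher in 4 of 12 in WT retinas and 7 of 12 in KO, none lower, against 3.11% and 4.38% of all genes passing higher. Without the 3 retinas these counts were 1 and 2. Both cold-inducible genes rose in KO, Rbm3 by 1.12 (SE 0.07, adjusted p = 0.00012) and Cirbp by 0.51 (SE 0.11, adjusted p = 0.034), and neither passed in WT, with 0.18 (adjusted p = 0.24) and 0.13 (adjusted p = 0.61). Without the 3 retinas Rbm3 passed in KO, with 1.13 (adjusted p = 0.011), and Cirbp did not, with 0.42 (adjusted p = 0.13).

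In the retina the other members did not follow the sum of Hspa1a and Hspa1b in this way. With group means subtracted, the correlation with the sum of Hspa1a and Hspa1b over 12 retinas was -0.05 for Hsph1, -0.30 for Dnajb1, -0.15 for Hsp90aa1 and -0.21 for Hspa8. Without KO-RA mice 1 and 3, the retinas farthest from the median, these were 0.43, -0.30, -0.05 and 0.06, again with the group means of all 12 retinas. Other members shared directions in single retinas: WT-RA mouse 1 was above its group by 0.18 log2 units in Dnajb1, 0.14 in Hsp90aa1, 0.26 in Hspa8, 0.16 in Hspd1 and 0.20 in Hspe1, and KO-RA mouse 3 by 0.15, 0.09, 0.13, 0.07 and 0.23. Over all samples, group differences included, the genes most like that sum were P4ha2 (r = 0.952), Ccn2 (0.951) and Tmem38b (0.948) in the lung and 3000002C10Rik (0.844), Alkbh5 (0.843) and Gm48551 (0.836) in the retina. Members had r of 0.86 (Hsp90aa1), 0.79 (Hspb1) and 0.79 (Hspd1) in the lung, and 0.30 (Hsph1) was the highest in the retina.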

How the data were processed

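RNA of 24 samples, 12 lungs and 12 retinas, each named for its own mouse, was sequenced at BGI. The authors pseudoaligned reads with kallisto, brought transcripts to gene level through tximport, and deposited expected counts (estimated read counts per gene) in a table for each tissue. The version of kallisto is not given in the sources used here, and the submitters' processing notes name mm10 where the study's supplement names GRCm39, so the annotation used is not settled. Library totals were 28763661 to 29604254 in the lung and 24863257 to 29093035 in the retina. Nonzero entries within 0.001 of a whole number made up 44.9% for lung but 0.35% for retina, so the tables may be scaled differently, and each tissue was tested alone.

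Symbols were given by Ensembl identifier to 35816 of 36109 lung genes and 35968 of 36595 retina genes. Counts were rounded and fitted in R 4.3.3 with edgeR 4.0.16: TMM factors, filterByExpr by group, glmQLFit with robust=TRUE over all 12 samples of a tissue, and quasi-likelihood F-tests of 5 contrasts with Benjamini-Hochberg adjustment over all genes tested. A gene passed at an adjusted p under 0.1. The fold change of 2 with p under 0.05 that the study also asked for is counted beside it. Standard errors (SE) were obtained by dividing a log2 fold change by the root of its F statistic. Each p-value sets a difference of groups against a spread between mice that is estimated over all 12 samples of the tissue, partly shared between genes. There are only 3 mice per group, and counts of a few CPM also carry counting error. The fit was also run on simulated counts, drawn gene by gene from the fitted spread, with planted fold changes of 2 or more. Such counts hold no smaller changes and no shared differences in lens, blood or sex, so this run does not bear on those.

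The members, 11 further chaperone and stress lists and 12 marker lists were chosen with earlier results of these data known. All members are reported, and of each other chaperone and stress list at most the 3 genes with the smallest p after hyperoxia. Hsf4 and Cryab in the retina are among these. Likeness was ranked for genes of at least 1 CPM on log2(CPM + 1). Alternatives were RLE and upper quartile factors, DESeq2 1.42.0, no filter on low counts, only the groups of a contrast, Hspa1a and Hspa1b as 1 feature, terms for Y-linked expression (above 20 CPM summed) and for erythroid or lens markers, and leaving out each mouse. A fit without the 3 retinas above 1000 CPM of lens markers was chosen after seeing the data. Promoter windows are from RefSeq on GRCm38.p6, gene positions from GENCODE on GRCm38, and shared words from its transcripts.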

Additional observations from a re-analysis of the deposited data

Results flagged for a closer look

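In the retina the response of Rbm3, a cold-inducible RNA-binding protein on the stress lists, differed between the genotypes. The interaction was 0.95 on the log2 scale (SE 0.10, adjusted p = 0.025, quasi-likelihood test of edgeR, Benjamini-Hochberg adjusted), with mean levels of 112 CPM in room air and 127 after hyperoxia in WT, and of 114 and 249 CPM in KO. Without the 3 retinas high in lens markers it was 1.00 (SE 0.15, adjusted p = 0.25). No chaperone member had an interaction that passed this test in either tissue.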

How the results depend on the processing

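Of 360 alternative values of single members, 321 kept their direction and their side of the threshold, 32 lost the call, 6 gained it and 1 reversed: Hspb1 in WT retinas, at 0.83 on the log2 scale with a term for lens markers. The values cover member comparisons that passed and others picked by hand. Values that stayed without a call count as kept, and fits without a mouse outside the contrast hardly move a value, so 321 is no measure of robustness. The calls gained by Hspa1a are those of the sum of both copies. Members passing in WT lungs went from 4 to 1 with a term for erythroid markers, which are low in all WT-O2 lungs, and ran from 2 to 5 when each mouse was left out, with 2 without WT-O2 mouse 1. In KO lungs they ran from 2 to 5, with 2 without KO-O2 mouse 1. DESeq2 passed 1 in WT retinas in place of 0, 3 in KO retinas in place of 1, and 1 in place of 0 for the retina interaction. The share of all genes that DESeq2 passed is not given. Leaving out each mouse gave 1 to 3 in KO retinas, with 3 without KO-O2 mouse 1, and 0 to 1 for the interaction, with 1 without that mouse. KO-O2 minus WT-O2 in the retina went from 1 to 0 with no filter on low counts, with only the groups of the contrast, with a term for Y-linked expression, with a term for lens markers, without the 3 retinas high in lens markers, and in 8 of the 12 fits that left out a mouse (0 to 1). The cause was not tested. RLE and upper quartile factors moved no count of members by over 1.5 times. No paired analysis was possible because each sample is its own mouse and the groups share no replicate numbers in the labels. With 3 mice per group, single mice decide several of the smaller lung calls.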
